A study of Mus musculus with 16 samples.

Results

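The mouse genes of tumours given panobinostat alone were set directly against those of tumours given trastuzumab alone, 2 days after treatment began. Of 16 whole-tumour RNA libraries, 8 belong to this comparison: the panobinostat mice numbered 4, 7, 8 and 13, and the trastuzumab mice numbered 12, 15, 20 and 24. All 16 tumours grew from AU565(pv), a human HER2-positive breast cancer cell line, implanted in a mammary fat pad of a SCID mouse. Panobinostat mice received panobinostat at 15 mg/kg on days 0 and 1 with PBS on day 0. Trastuzumab mice received trastuzumab at 10 mg/kg on day 0 with D5W, a sugar solution, on days 0 and 1. The remaining libraries, 4 given both drugs at those doses and 4 given D5W and PBS only as vehicle, enter the fit through the spread and stand beside some values below. Every injection was intraperitoneal, and tumours were harvested on day 2. Each library came from its own mouse, and no age is given for the animals in the sources used here. The series design puts the single trastuzumab dose on day 1 instead of day 0, so the length of exposure to the antibody is uncertain by a day.

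Panobinostat inhibits histone deacetylases, enzymes that remove acetyl groups from histones and other proteins, and it can act on any cell of the tumour or host. Trastuzumab is an antibody that binds human HER2 on the tumour cells and can engage host cells through their Fc receptors, the receptors for antibody tails carried by macrophages, neutrophils and natural killer cells. SCID mice lack mature T and B lymphocytes but keep natural killer and myeloid cells, so the host response in this model is mainly an innate one. The comparison addresses which host genes each single drug favours. A positive log2 change means higher with panobinostat, and a negative one means higher with trastuzumab.

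Total counts of the 8 libraries ranged from 4848244 to 7345222. They averaged 5820239 ± 385315 with panobinostat and 6036206 ± 1041244 with trastuzumab (SD, n = 4 each; difference -215967, exact two-sided permutation p = 0.714), and without trastuzumab mouse 12 the difference turned to 220372. No pair of libraries within a group was alike enough to count as 1 sample: chi-square per degree of freedom, which also grows with depth, was 4.06 to 24.2. Levels are given as CPM (counts scaled to a common library size by TMM), which corrects for differences in library composition. Adipocyte markers varied widely within both groups, with a summed level of 4641 to 30359 CPM with panobinostat and 4987 to 27741 CPM with trastuzumab. The T and B cell genes Cd3d, Cd3g and Ms4a1 had at most 4 counts in any of the 8 libraries and Trac at most 10, but other genes of that list were present, such as Ighm, an immunoglobulin heavy chain, at 121 ± 18.3 CPM with panobinostat and 124 ± 16.5 CPM with trastuzumab. Tumour cells were human while counting used mouse genes. How many human reads entered the counts is unknown, so a conserved gene may carry some. A lower level in whole tumours can come from fewer cells of a type or from less RNA per cell, and these cannot be told apart here.

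Of 15610 genes tested, 10 passed a Benjamini-Hochberg adjusted p of 0.05 in edgeR's quasi-likelihood test, or 0.0641% of genes. With panobinostat, 3 genes rose relative to trastuzumab (0.0192% of genes): Vgf, Dner and Cacng7. The 7 that fell (0.0448% of genes) were Retnlg, Col10a1, F7, Smoc2, Cxcr4, Lyz1 and Egr1. For each of the 10, the 4 panobinostat libraries did not overlap the 4 trastuzumab libraries, as was the case for 5.12% of all genes. The 10 were called on these same libraries, so their lack of overlap is a description and not separate support. At an unadjusted p under 0.05 there were 593 genes higher and 500 lower, or 3.8% and 3.2%. The number of calls leaned on single libraries and on the tool. Without panobinostat mouse 4, 7, 8 or 13 it was 5, 4, 5 or 2, and without trastuzumab mouse 12, 15 or 24 it was 16, 2 or 5. It was 6 without combination mouse 16 or vehicle mouse 21 and 16 without vehicle mouse 29. DESeq2 called 69 genes and limma voom 8. A fit of the 8 panobinostat and trastuzumab libraries alone called 15, with 6 of the 10 among them: Dner, Retnlg and Col10a1 missed the threshold there (adjusted p = 0.0671 each) and F7 was too scarce to be tested.

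**Figure D1:**
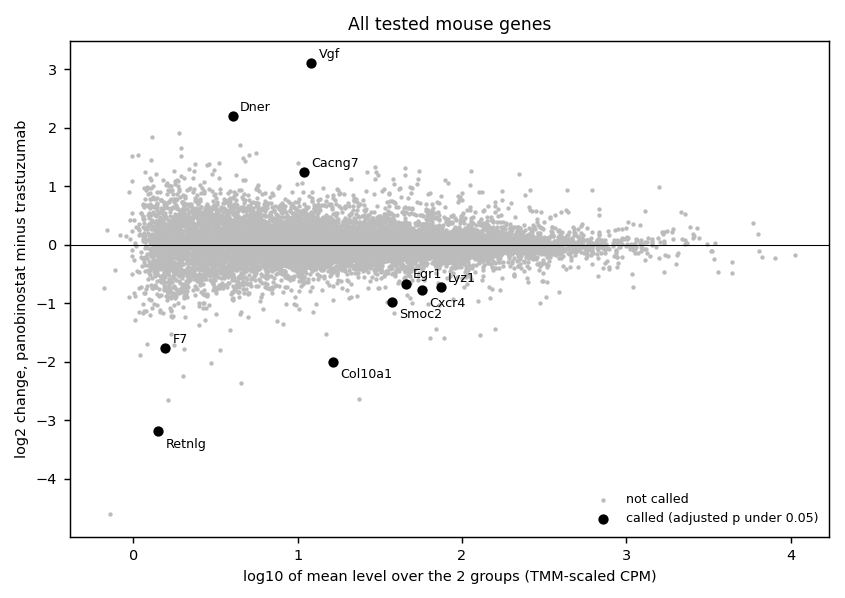
Each point is a gene, with its average level on the x axis and its log2 change, panobinostat minus trastuzumab, on the y axis. The 10 genes past the threshold are marked, 3 above 0 and 7 below it, and Vgf has the largest positive change among them at 3.10.

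Vgf had the largest increase and the smallest adjusted p of the called genes. It encodes a precursor of secreted neuropeptides that nerve and endocrine cells store in dense-core granules. Its levels were 27.6, 21.3, 23.3 and 14.6 CPM with panobinostat, against 2.61, 1.11, 3.13 and 3.31 CPM with trastuzumab. The lowest panobinostat library lay well above every trastuzumab library. The log2 change was 3.10 (SE 0.36, adjusted p = 0.00233), which is 8.59-fold. Vgf passed the test under all 11 other settings and in all 16 fits that left out 1 library, with an adjusted p of at most 0.0147 in those 16. Vgf occupies 137026392 to 137033351 of chromosome 5 (mm10) and shares no exon bases with another annotated gene.

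Dner, a transmembrane protein of neurons that can bind Notch, had 8.73, 5.90, 5.91 and 5.91 CPM with panobinostat, against 0.82, 0.95, 0.83 and 3.14 CPM with trastuzumab. Trastuzumab mouse 24 stood above the other trastuzumab libraries but below every panobinostat library. The log2 change was 2.20 (SE 0.38, adjusted p = 0.0450). This call was fragile: it held in 1 of the 8 fits that left out a panobinostat or trastuzumab library, with adjusted p up to 0.143 and a log2 change of 1.97 to 2.89. Dner spans 84369839 to 84696221 of chromosome 1, on the minus strand.

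Cacng7 encodes an auxiliary subunit that associates with calcium channels and AMPA-type glutamate receptors in the brain. Its levels were 12.8, 18.4, 11.8 and 18.4 CPM with panobinostat, against 7.0, 6.96, 6.26 and 5.75 CPM with trastuzumab. The trastuzumab libraries lay close together, and the panobinostat libraries fell into a lower and a higher pair. The log2 change was 1.24 (SE 0.18, adjusted p = 0.0110). The gene kept its call under all 11 other settings, and lost it without panobinostat mouse 13 (adjusted p = 0.0689) or trastuzumab mouse 15 (0.0523). Cacng7 lies on chromosome 7 at 3332955 to 3368221.

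**Figure D2:**
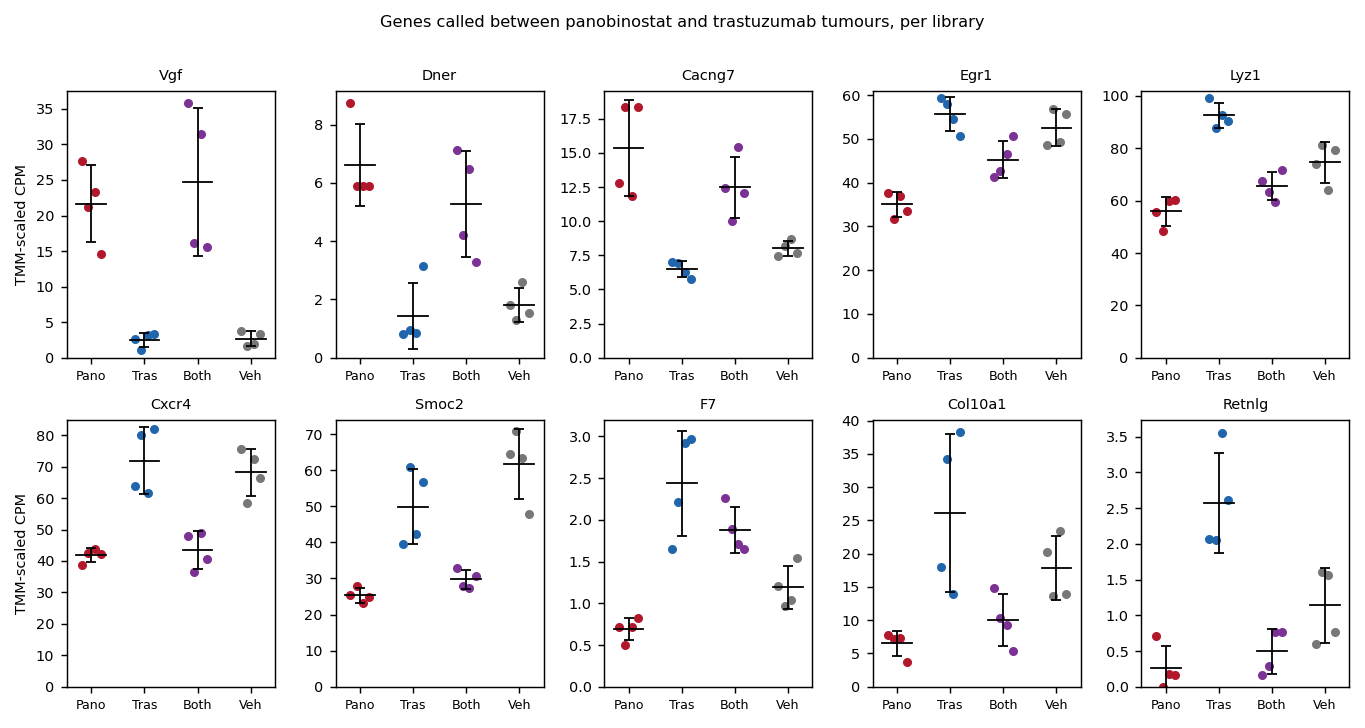
Points are the levels of the 10 called genes in each library, in TMM-scaled CPM, with panobinostat left of trastuzumab, then the combination and vehicle, and bars give the mean ± SD of 4 libraries. In every panel the panobinostat and trastuzumab points do not overlap, and the combination points of Vgf (mean 24.7 CPM) sit with those of panobinostat (21.7 CPM).

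The promoters of Dner and Cacng7 are shown as those of the called neuronal genes in the RefSeq table, each covering 250 bases before and 50 after the RefSeq start in build GRCm38.p6 (mm10) and read along the gene's strand. Dner lies at chr1:84696172-84696471 on the minus strand, and Cacng7 at chr7:3332575-3332874 on the plus strand. Capitals mark the RE1 half-site TTCAGCACC in Dner and the GC box, GGGCGG read on the opposite strand, in Cacng7. RE1 is the element bound by REST, a repressor of neuronal genes.
Dner: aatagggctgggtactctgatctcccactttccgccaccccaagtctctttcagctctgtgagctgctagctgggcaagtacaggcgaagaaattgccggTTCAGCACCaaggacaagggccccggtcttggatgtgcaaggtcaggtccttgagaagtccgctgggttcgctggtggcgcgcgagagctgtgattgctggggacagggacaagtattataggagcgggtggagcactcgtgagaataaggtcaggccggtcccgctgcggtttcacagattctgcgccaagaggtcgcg
Cacng7: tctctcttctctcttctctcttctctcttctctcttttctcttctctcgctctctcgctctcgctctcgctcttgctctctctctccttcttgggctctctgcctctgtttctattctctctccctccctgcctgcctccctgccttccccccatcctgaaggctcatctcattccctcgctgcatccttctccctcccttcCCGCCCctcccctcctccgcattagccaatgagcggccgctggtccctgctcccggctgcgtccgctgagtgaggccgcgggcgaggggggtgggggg
The half-site lay 150 to 142 bases before the Dner start, and the GC box 48 to 43 bases before the Cacng7 start. TTCAGCACC, searched on both strands and chosen after the called genes were known, occurs in 0.363% of 27025 promoters of that length, and in 1 of the 7 called genes that have a promoter in the RefSeq table. GGGCGG occurs in 35.6% of promoters and in 2 of those 7 genes, Cacng7 and Cxcr4. A match is a run of letters and not evidence of binding. Vgf, Egr1 and Smoc2 have no entry in that table.

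Other neuronal genes had positive values that mostly did not pass. Of 25 neuronal and dense-core granule genes listed, 13 were abundant enough to test, and 12 of these had positive changes; the median log2 change was 0.63 against 0.005 for all genes (51.2% of which were positive). Vgf alone was called by edgeR on all 16 libraries and by voom, whereas DESeq2 also called Fxyd7, Stmn2 and Syp. In the edgeR fit of the 8 panobinostat and trastuzumab libraries alone, Fxyd7 reached an adjusted p of 0.0477. At an unadjusted p under 0.05, 8 of the 13 were higher and 0 lower, beside 3.8% and 3.2% of all genes. Syp, a membrane protein of synaptic vesicles, averaged 6.86 ± 1.33 CPM with panobinostat and 2.39 ± 0.88 CPM with trastuzumab (log2 change 1.48, SE 0.29, adjusted p = 0.0878). Fxyd7, a brain regulator of the sodium pump, averaged 3.01 ± 0.43 CPM with panobinostat and 0.80 ± 0.21 CPM with trastuzumab (log2 change 1.90, SE 0.38, adjusted p = 0.0943). Snap25, which drives fusion of synaptic vesicles, had a log2 change of 1.37 (SE 0.37, adjusted p = 0.256), and Cpe, a peptide-processing enzyme, the single negative one of -0.14. The mean log2 CPM of the list was 3.28 to 3.40 with panobinostat and 2.23 to 2.64 with trastuzumab, with no overlap. Schwann cell markers, the other nerve-related cells of a fat pad, had a median of 0.16 over 8 tested genes, with 1 higher and 0 lower at an unadjusted p under 0.05. Whether nerve content plays a part in the neuronal values was not tested.

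Iglon5, Tesc and Prps1, like Syp and Fxyd7, were among the increases of smallest p that did not pass in edgeR on all 16 libraries. DESeq2 called each of them, and voom called none. Iglon5, a cell adhesion molecule of the nervous system, had 17.6, 13.5, 12.9 and 13.1 CPM with panobinostat, against 5.36, 8.70, 7.51 and 5.92 CPM with trastuzumab (log2 change 1.06, SE 0.20, adjusted p = 0.0706). Tesc, a calcium-binding protein, averaged 4.15 ± 0.61 CPM with panobinostat and 1.59 ± 0.43 CPM with trastuzumab (log2 change 1.38, SE 0.27, adjusted p = 0.0733). Prps1, an enzyme that makes the precursor of nucleotides, averaged 71.3 ± 4.53 CPM with panobinostat and 53.4 ± 1.61 CPM with trastuzumab (log2 change 0.42, SE 0.09, adjusted p = 0.101). None of these 3 overlapped between the groups.

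Among the genes that fell with panobinostat relative to trastuzumab, Lyz1 was on the macrophage list and Retnlg on the neutrophil list. Cxcr4 was on no cell type list and is described between them. Lyz1 encodes a lysozyme, a bacteria-degrading enzyme. It had 55.8, 48.2, 59.8 and 60.2 CPM with panobinostat, against 99.3, 87.8, 92.7 and 90.4 CPM with trastuzumab, so both groups were tight and a wide gap lay between them. The log2 change was -0.72 (SE 0.10, adjusted p = 0.0110), and it passed in all 16 fits that left out 1 library, with adjusted p up to 0.0470. With the erythroid marker level as a covariate its adjusted p was 0.0880. Lyz2, a near-identical copy that macrophages express strongly, averaged 3647 ± 327 CPM with panobinostat and 5115 ± 323 CPM with trastuzumab (log2 change -0.49, SE 0.12, adjusted p = 0.237). Reads could have been split between the copies in counting, so the Lyz1 value is uncertain as that of 1 gene. Lyz1 lies on chromosome 10 at 117287797 to 117292868.

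Cxcr4 is the receptor for the chemokine CXCL12 and guides leukocytes and endothelial cells. It had 38.8, 42.5, 43.9 and 42.3 CPM with panobinostat, against 63.9, 80.1, 61.6 and 81.9 CPM with trastuzumab. The panobinostat libraries were tight and the trastuzumab libraries formed a lower and a higher pair. Its log2 change was -0.78 (SE 0.12, adjusted p = 0.0220). The call was lost without any one of the 4 panobinostat libraries or without trastuzumab mouse 15 or 24, with adjusted p up to 0.117. Cxcr4 lies on chromosome 1 at 128588199 to 128592293.

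Retnlg, a resistin-like secreted protein made by neutrophils, was scarce: 4, 0, 1 and 1 reads with panobinostat, against 15, 13, 17 and 15 reads with trastuzumab. Every trastuzumab library held more reads than any panobinostat library. The fitted log2 change was -3.19 (SE 0.57, adjusted p = 0.0471), a size that rests on these few reads. The call held in 2 of the 8 fits that left out a panobinostat or trastuzumab library, with adjusted p up to 0.180. Retnlg lies on chromosome 16 at 48872621 to 48874496.

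Egr1, a transcription factor that growth factor signalling switches on within minutes, had 37.8, 31.7, 37.1 and 33.6 CPM with panobinostat, against 59.3, 58.1, 54.5 and 50.7 CPM with trastuzumab. The highest panobinostat library was below the lowest trastuzumab library by more than the range of either group. The log2 change was -0.67 (SE 0.10, adjusted p = 0.0133). Egr1 lost its call without panobinostat mouse 7 or 13 or trastuzumab mouse 15, with adjusted p up to 0.0825, and with the erythroid marker level as a covariate (adjusted p = 0.128).

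Stromal and coagulation genes made up the rest of the genes that fell. Smoc2, a matrix-associated calcium-binding protein of fibroblasts, had 25.5, 27.8, 23.1 and 24.8 CPM with panobinostat, against 39.7, 60.9, 42.4 and 56.6 CPM with trastuzumab. Its panobinostat values lay within a narrow band under a broad trastuzumab range. The log2 change was -0.98 (SE 0.15, adjusted p = 0.0133), and leaving out panobinostat mouse 4, 8 or 13 or trastuzumab mouse 15 or 24 ended the call, with adjusted p up to 0.0825. Smoc2 lies on chromosome 17 at 14279506 to 14404790.

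Col10a1 encodes type X collagen, known from the growth plate of cartilage. It had 7.84, 7.25, 7.34 and 3.77 CPM with panobinostat, against 18, 34.2, 14.0 and 38.3 CPM with trastuzumab. The groups did not overlap, but the trastuzumab libraries spread widely. Its log2 change was -2.0 (SE 0.35, adjusted p = 0.0450), and the call held in 2 of the 8 fits that left out a panobinostat or trastuzumab library, with adjusted p up to 0.161. The kit does not mark strand, and Col10a1 exons on chromosome 10 at 34389981 to 34397085 overlap Nt5dc1 on the opposite strand, so its reads could not be told from those of Nt5dc1. F7 encodes coagulation factor VII, the plasma protease that tissue factor activates. It had 0.71, 0.51, 0.72 and 0.82 CPM with panobinostat, against 1.65, 2.22, 2.92 and 2.96 CPM with trastuzumab, which were 3 to 5 reads in panobinostat libraries and 12 to 17 reads in trastuzumab libraries. Its log2 change was -1.77 (SE 0.30, adjusted p = 0.0369), and 1 of the same 8 fits kept the call, with adjusted p up to 0.142. F7 lies on chromosome 8 at 13026034 to 13035809. Ptgs1, the constitutive cyclooxygenase, came just short of the threshold, with 19.8, 26.3, 22.4 and 24.4 CPM with panobinostat, against 33.4, 40.5, 38.8 and 43.4 CPM with trastuzumab (log2 change -0.75, SE 0.14, adjusted p = 0.0543). DESeq2 called Ptgs1 and voom did not.

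The promoters of Retnlg and Col10a1 are shown as those with the largest falls, over the same window: chr16:48872358-48872657 and chr10:34389731-34390030, both on the plus strand. Neither held any of the motifs searched, so they carry no capitals.
Retnlg: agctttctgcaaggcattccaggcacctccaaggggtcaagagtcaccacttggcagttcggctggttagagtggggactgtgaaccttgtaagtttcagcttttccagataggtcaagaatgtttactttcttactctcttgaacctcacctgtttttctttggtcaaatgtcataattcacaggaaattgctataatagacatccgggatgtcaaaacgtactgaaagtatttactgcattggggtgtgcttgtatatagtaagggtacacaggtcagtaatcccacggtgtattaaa
Col10a1: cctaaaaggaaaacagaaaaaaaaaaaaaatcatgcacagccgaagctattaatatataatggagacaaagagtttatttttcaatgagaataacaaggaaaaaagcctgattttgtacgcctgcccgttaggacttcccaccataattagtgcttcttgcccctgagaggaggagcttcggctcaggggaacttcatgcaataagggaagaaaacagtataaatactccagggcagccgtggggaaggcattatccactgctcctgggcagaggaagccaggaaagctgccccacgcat
On both strands, the interferon-stimulated response element core (GAAA, any pair of bases, GAAA) occurs in 3.52% of promoters, the gamma-activated site core TTCNNNGAA in 8.37% and the cyclic AMP response element TGACGTCA in 1.78%. None of the 7 called genes with a promoter held any of these 3, which says only that these letters are not in this window.

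The same 10 genes were also set against vehicle for each drug. Both comparisons use the same 4 vehicle libraries, so they share that error and are only placed side by side. The 10 genes were also chosen on a difference between these same panobinostat and trastuzumab libraries, so the share of them that passed against vehicle is a description and cannot be read against the share of all genes. Of the 10 genes, 5 passed the test for panobinostat against vehicle (0.192% of all genes did): Vgf, Cacng7, Smoc2, Cxcr4 and Egr1. Vgf and Smoc2 kept that call whichever of the 16 libraries was left out, while Cacng7 lost it in 11 of 16 such fits, Egr1 in 10 and Cxcr4 in 9, with adjusted p up to 0.132, 0.128 and 0.142, and voom called none of these 3. For trastuzumab against vehicle, edgeR called 0 of the 10 and 0% of all genes, with a smallest adjusted p of 0.741 among the 10. At an unadjusted p under 0.05 the trastuzumab comparison held 4 of the 10 and 549 genes in all (3.52%), and the panobinostat comparison 9 of the 10 and 1265 genes (8.1%). Vgf had a log2 change of 3.02 with panobinostat and of -0.09 with trastuzumab, against a vehicle level of 2.68 ± 1.09 CPM. Smoc2 had -1.28 (adjusted p = 0.00159) with panobinostat and -0.30 with trastuzumab. Cxcr4 had -0.70 with panobinostat and 0.08 with trastuzumab, and Egr1 -0.59 with panobinostat and 0.08 with trastuzumab.

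In every called gene except Smoc2 the drugs lay on opposite sides of vehicle. For Vgf, Cxcr4 and Egr1 the trastuzumab value was smaller than its SE. Choosing genes on a difference between the drugs itself favours opposite signs, so these signs are a description only. Cacng7, which passed for panobinostat, had a log2 change of 0.94 with panobinostat and -0.30 with trastuzumab. Dner, Col10a1, F7, Retnlg and Lyz1 did not pass against vehicle with either drug. Dner had 1.86 with panobinostat and -0.34 with trastuzumab, and Col10a1 -1.44 with panobinostat and 0.56 with trastuzumab. F7 had a log2 change of -0.77 (SE 0.33, adjusted p = 0.669) with panobinostat and 1.0 (SE 0.27, adjusted p = 0.741) with trastuzumab. Retnlg had -2.06 (SE 0.64) with panobinostat and 1.12 (SE 0.43) with trastuzumab. Lyz1 had -0.41 (SE 0.10, adjusted p = 0.122) with panobinostat and 0.31 (SE 0.10) with trastuzumab, around a vehicle level of 74.6 ± 7.80 CPM. By contrast, Il1rn, the antagonist of the interleukin-1 receptor, averaged 33.1 ± 9.74 CPM with panobinostat and 66.2 ± 10.0 CPM with trastuzumab, beside 26.9 ± 3.61 CPM with vehicle. Its log2 change between the drugs was -1.0 (SE 0.27, adjusted p = 0.256). Clec7a, the receptor for fungal beta-glucans on macrophages, averaged 132 ± 30.8 CPM with panobinostat and 178 ± 15.0 CPM with trastuzumab, beside 104 ± 16.2 CPM with vehicle (between the drugs -0.43, SE 0.16, adjusted p = 0.485).

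**Figure D3:**
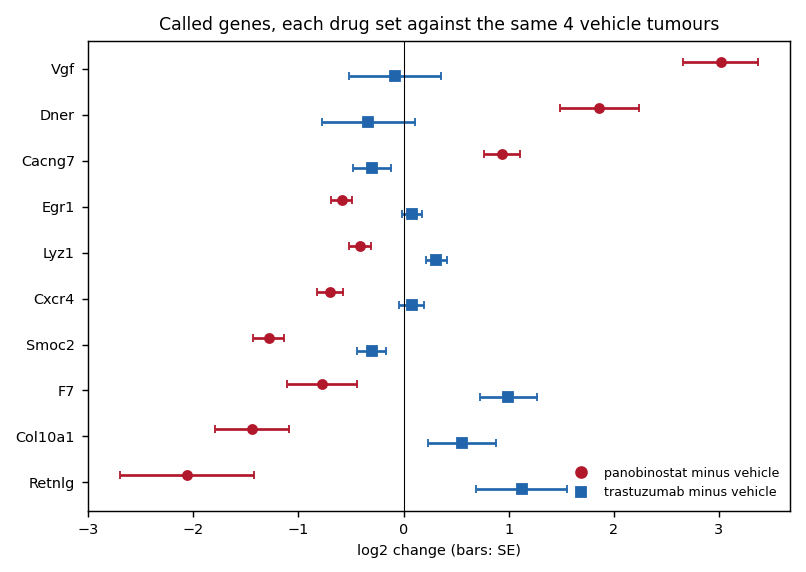
For each called gene the log2 change against vehicle is plotted for panobinostat and for trastuzumab, with bars of 1 SE. Both use the same vehicle libraries. Vgf stands at 3.02 for panobinostat and -0.09 for trastuzumab, while F7 stands at -0.77 for panobinostat and 1.0 for trastuzumab.

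Interferon response genes had higher values with panobinostat than with trastuzumab, and edgeR on all 16 libraries called none of them. Of the type I interferon list, 30 of 30 tested genes were positive, and their median log2 change was 0.71 against 0.005 for all genes. At an unadjusted p under 0.05, 22 were higher and 0 lower, and 24 did not overlap between the groups. Of all genes, 3.8% were higher and 3.2% lower at that p, and 2.68% were higher without overlap. edgeR and voom called 0 of the 30, and DESeq2 called Ifit1 and Mx1. Ifit1, which binds foreign RNA, had 110, 134, 98.7 and 87.5 CPM with panobinostat, against 43.7, 63.6, 56.4 and 35.2 CPM with trastuzumab (log2 change 1.11, SE 0.29, adjusted p = 0.256). Mx1, an antiviral GTPase, averaged 62.8 ± 17.8 CPM with panobinostat and 27.4 ± 3.45 CPM with trastuzumab (log2 change 1.20, SE 0.32, adjusted p = 0.256). The signalling factor Stat2 had a log2 change of 0.81 (SE 0.22, adjusted p = 0.256). The mean log2 CPM of the list was 6.21 to 6.67 with panobinostat and 5.36 to 5.90 with trastuzumab, beside 4.99 to 5.74 with vehicle.

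Genes that interferon gamma induces also had positive values. The log2 changes of all 23 tested were positive (median 0.71), 15 were higher and 0 lower at an unadjusted p under 0.05, and 10 did not overlap. Among all genes, 3.8% were higher at that unadjusted p and 2.68% were higher without overlap. edgeR and voom called 0 of them, and DESeq2 called Iigp1, an immunity-related GTPase, which averaged 161 ± 38.8 CPM with panobinostat and 66.6 ± 14.2 CPM with trastuzumab (log2 change 1.27, SE 0.35, adjusted p = 0.275). The list scored 5.08 to 5.64 with panobinostat and 4.32 to 5.18 with trastuzumab, where mouse 12 held the top of the trastuzumab range. Cxcl9, Cxcl10 and Cxcl11 are the ligands of CXCR3, the receptor that draws natural killer and T cells. Cxcl10 had 54.5, 48.2, 31.3 and 35.3 CPM with panobinostat, against 19.5, 17.4, 17.7 and 12.4 CPM with trastuzumab, without overlap (log2 change 1.33, SE 0.42, adjusted p = 0.363). Cxcl11 had 19.2, 15.0, 13.6 and 10.8 CPM with panobinostat, against 6.18, 6.33, 4.17 and 5.23 CPM with trastuzumab (log2 change 1.40, SE 0.52, adjusted p = 0.503). Cxcl9 had 83.7, 46.9, 60.9 and 67.4 CPM with panobinostat, against 53.1, 36.7, 18.6 and 21.4 CPM with trastuzumab, and here the groups overlapped (log2 change 0.98, SE 0.45, adjusted p = 0.684). In a fit of the 8 panobinostat and trastuzumab libraries alone, Cxcl10, Cxcl11 and Iigp1 each reached an adjusted p of 0.0477. The checkpoint ligand Cd274, also interferon-induced, had a log2 change of 0.31 (SE 0.34, adjusted p = 0.998).

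**Figure D4:**
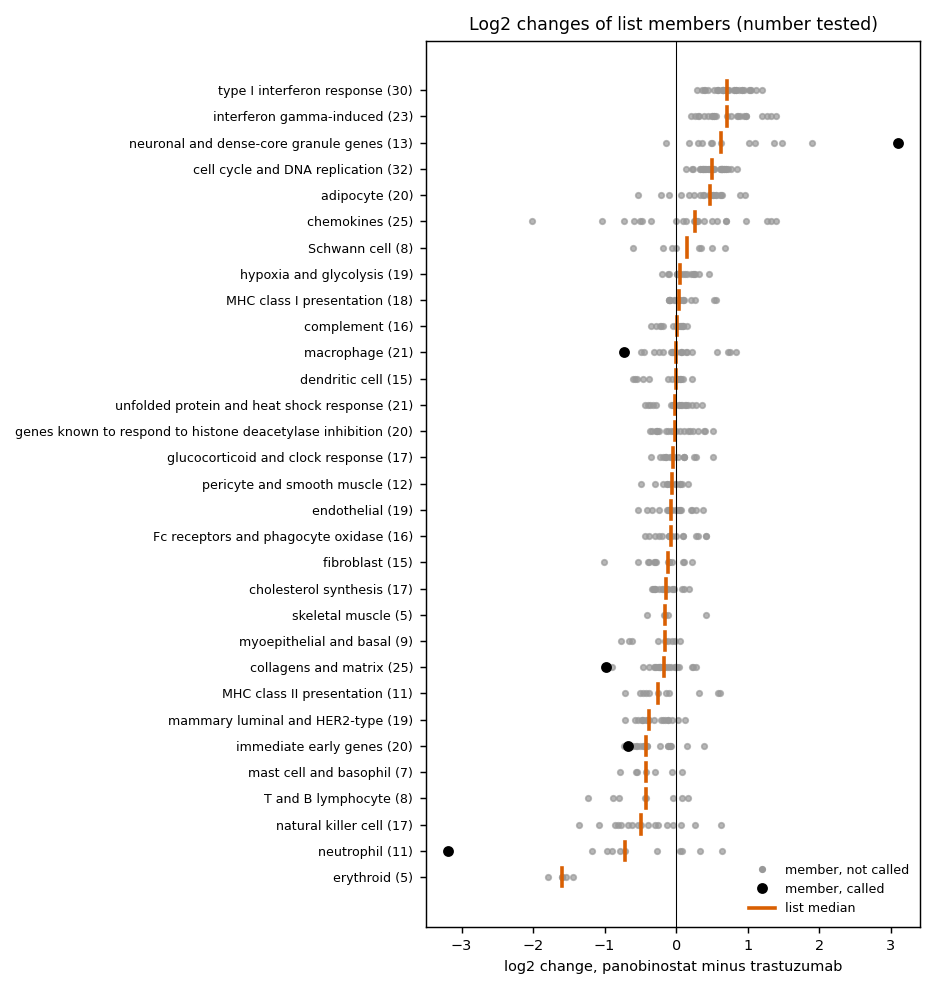
Each row is a gene list, with panobinostat-minus-trastuzumab log2 changes of its tested members as points and the median as a line. The type I interferon and interferon gamma-induced lists lie wholly above 0, as does the cell cycle list, and the erythroid list lies wholly below it.

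Cell cycle and DNA replication genes had higher values with panobinostat. The log2 changes of all 32 tested were positive (median 0.51), 22 were higher and 0 lower at an unadjusted p under 0.05, and 12 did not overlap. Over all genes, 3.8% were higher at that unadjusted p and 2.68% were higher without overlap. The list scored 4.45 to 4.90 with panobinostat and 3.85 to 4.33 with trastuzumab. edgeR and voom called 0, and DESeq2 called Rrm2, a subunit of the enzyme that makes deoxynucleotides. Rrm2 averaged 31.5 ± 4.05 CPM with panobinostat and 18.5 ± 4.41 CPM with trastuzumab (log2 change 0.77, SE 0.19, adjusted p = 0.196). Aurka, a mitotic kinase, had a log2 change of 0.67 (SE 0.17, adjusted p = 0.252), and Mcm5, part of the replicative helicase, one of 0.47 (SE 0.13, adjusted p = 0.256). The cell cycle inhibitor Cdkn1a, a classical target of deacetylase inhibitors in cultured cells, averaged 46.8 ± 2.01 CPM with panobinostat and 48.0 ± 3.63 CPM with trastuzumab. Its log2 change was -0.04 (SE 0.15, adjusted p = 0.999). H1f0, a linker histone used as a marker of such inhibitors, averaged 103 ± 9.07 CPM with panobinostat and 109 ± 10.2 CPM with trastuzumab. Of 20 genes known to respond to histone deacetylase inhibition, edgeR, DESeq2 and voom called 0, with a median log2 change of -0.02 and, at an unadjusted p under 0.05, 0 higher and 1 lower.

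Haemoglobin genes had lower values with panobinostat than with trastuzumab. Of 10 erythroid genes listed, 5 were tested, with a median log2 change of -1.60. All 5 had a negative log2 change, an unadjusted p under 0.05 and no overlap. Of all genes, 3.2% were lower at that p and 2.45% were lower without overlap. edgeR and voom called 0 of them, and DESeq2 called Hbb-b1 and Hbb-b2. Hbb-b1, a beta-globin, had 58.8, 81.6, 51.0 and 72.4 CPM with panobinostat, against 298, 162, 219 and 91.5 CPM with trastuzumab (log2 change -1.55, SE 0.37, adjusted p = 0.188). Alas2, the first enzyme of haem synthesis in red cell precursors, averaged 1.50 ± 0.57 CPM with panobinostat and 5.22 ± 2.14 CPM with trastuzumab (log2 change -1.79, SE 0.47, adjusted p = 0.256). The globin copies are near-identical and may share reads, so the 4 globin genes are not separate observations. The summed level of the erythroid markers was 137 to 206 CPM with panobinostat and 242 to 815 CPM with trastuzumab, and their mean log2 CPM 4.23 to 4.76 with panobinostat and 5.01 to 6.69 with trastuzumab. With this marker level added to the fit, 56 genes were called, 8 higher and 48 lower, and Dner, Retnlg, F7, Lyz1 and Egr1 were no longer among them. The marker level did not overlap between the drugs, so this fit could not fully separate it from the drug given.

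Most neutrophil genes had lower values with panobinostat. Of 11 tested, Retnlg was called by edgeR and voom and DESeq2 added Cxcr2 and Mmp9. At an unadjusted p under 0.05, 0 were higher and 7 lower, and the median log2 change was -0.71. Of all genes, 3.8% were higher and 3.2% lower at that p, with a median of 0.005. Cxcr2, the chemokine receptor that releases neutrophils from marrow, averaged 8.69 ± 1.02 CPM with panobinostat and 15.0 ± 1.45 CPM with trastuzumab (log2 change -0.79, SE 0.17, adjusted p = 0.101). S100a8, a subunit of the calprotectin complex of neutrophil cytosol, had 19.4, 11.6, 12.9 and 14.9 CPM with panobinostat, against 17.0, 38.9, 31.5 and 22.8 CPM with trastuzumab (log2 change -0.90, SE 0.26, adjusted p = 0.313), and the groups overlapped. The summed level of the list was 154 to 248 CPM with panobinostat and 281 to 311 CPM with trastuzumab, and its mean log2 CPM 2.72 to 3.49 with panobinostat and 3.67 to 3.88 with trastuzumab. Another 4 of the 11 had positive log2 changes: Mmp8 (0.65), Ltf (0.33), Fpr1 (0.075) and Fpr2 (0.06), with adjusted p of 0.97 or more. Among members too scarce to test, the granule genes Mpo, Elane and Camp and the lineage marker Ly6g had at most 5 counts in any of the 8 libraries. Cxcl2, a chemokine that attracts neutrophils, averaged 1.16 ± 0.67 CPM with panobinostat and 4.76 ± 1.78 CPM with trastuzumab (log2 change -2.02, SE 0.42, adjusted p = 0.101). The part of neutrophil content in the Retnlg and Cxcl2 values was not tested.

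Immediate early genes, the first to answer growth factors and stress, mostly had lower values too. Of 20 tested, edgeR and voom called Egr1 and DESeq2 added Fos and Junb. At an unadjusted p under 0.05, 0 were higher and 9 lower, 18 of the 20 log2 changes were negative, and the median was -0.42. For all genes, 3.8% were higher and 3.2% lower at that p, 51.2% of log2 changes were positive, and the median was 0.005. Fos, a subunit of the AP-1 factor, had 13.2, 14.0, 14.3 and 14.3 CPM with panobinostat, against 31.7, 22.3, 20.9 and 17.4 CPM with trastuzumab (log2 change -0.73, SE 0.18, adjusted p = 0.204). Junb, its partner, averaged 115 ± 12.9 CPM with panobinostat and 155 ± 11.8 CPM with trastuzumab (log2 change -0.43, SE 0.11, adjusted p = 0.214). The list scored 4.64 to 4.82 with panobinostat and 4.93 to 5.16 with trastuzumab, beside 5.01 to 5.05 with vehicle.

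**Figure D5:**
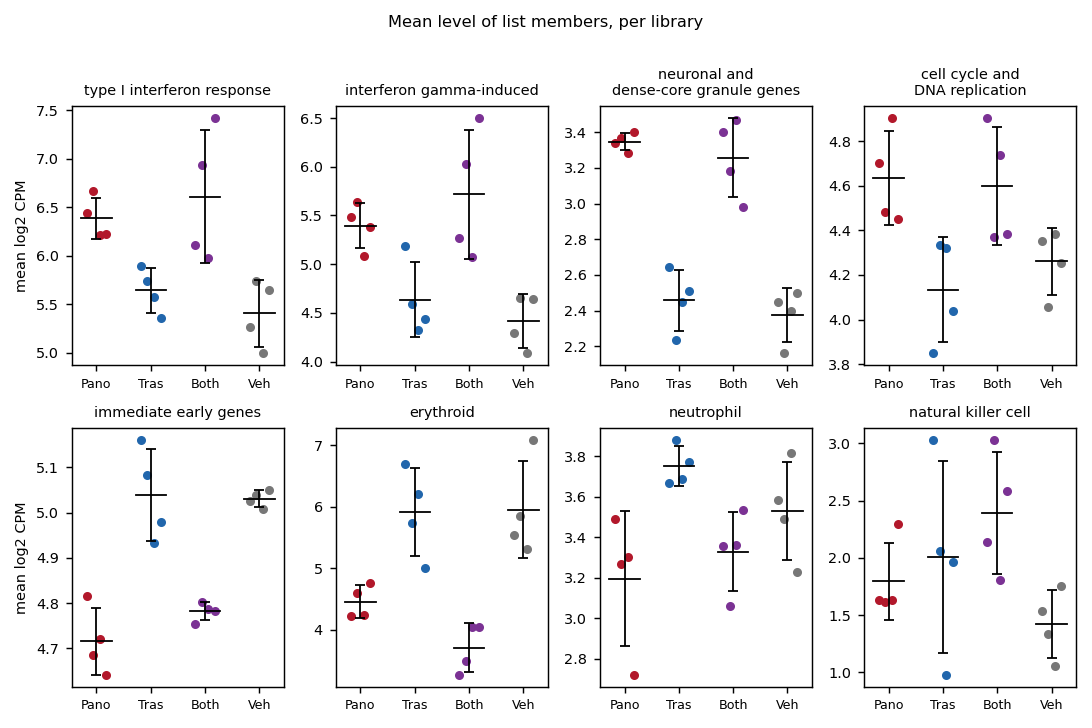
Points are the mean log2 CPM of each gene list in each library, with panobinostat left of trastuzumab, then the combination and vehicle, and bars give the mean ± SD of 4 libraries. Panobinostat and trastuzumab points do not overlap for the type I interferon, neuronal, cell cycle, immediate early, erythroid and neutrophil lists, and they overlap for the interferon gamma-induced and natural killer cell lists.

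Macrophage and antigen presentation genes split by gene. Over 21 macrophage markers the median log2 change was -0.0007, with 3 higher and 5 lower at an unadjusted p under 0.05. The shares of all genes at that p were 3.8% higher and 3.2% lower. Lyz1 was called by edgeR and voom, and DESeq2 added Lyz2 and Siglec1. Siglec1, a sialic acid receptor of macrophages that interferon induces, averaged 309 ± 98.5 CPM with panobinostat and 172 ± 34.4 CPM with trastuzumab (log2 change 0.84, SE 0.22, adjusted p = 0.256). The haemoglobin scavenger receptor Cd163 and the mannose receptor Mrc1 had log2 changes of 0.73 (SE 0.25, adjusted p = 0.452) and 0.57 (SE 0.22, adjusted p = 0.528). Emr1, which encodes F4/80, the surface marker used to define mouse macrophages, averaged 201 ± 8.85 CPM with panobinostat and 275 ± 47.6 CPM with trastuzumab (log2 change -0.45, SE 0.12, adjusted p = 0.275). Summed over the list, the level was 13445 to 14982 CPM with panobinostat and 15423 to 18549 CPM with trastuzumab, a sum in which Lyz2 and Apoe weigh most. The part of macrophage content in the Lyz1 value was not tested. Fcgr4, an activating Fc receptor for mouse IgG, averaged 112 ± 13.3 CPM with panobinostat and 83.6 ± 10.7 CPM with trastuzumab (log2 change 0.42, SE 0.21, adjusted p = 0.740), beside 61.2 ± 8.83 CPM with vehicle.

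Classical MHC class II genes had lower values with panobinostat than with trastuzumab, while the H2-O chains had higher ones. edgeR and voom called 0 of 11 tested genes, DESeq2 called Ctss and H2-Ab1, and at an unadjusted p under 0.05, 1 was higher and 5 lower. Beside these, 3.8% of all genes were higher and 3.2% lower at that p. H2-Ab1, a class II beta chain, had 747, 669, 681 and 603 CPM with panobinostat, against 1020, 857, 748 and 988 CPM with trastuzumab (log2 change -0.42, SE 0.11, adjusted p = 0.256). With vehicle H2-Ab1 averaged 630 ± 25.3 CPM. Its log2 change against vehicle was 0.10 with panobinostat and 0.52 with trastuzumab, and neither passed. Over the 11 genes the median against vehicle was 0.20 with panobinostat and 0.42 with trastuzumab. Ctss, the protease that trims the class II chaperone, averaged 825 ± 101 CPM with panobinostat and 1357 ± 276 CPM with trastuzumab (log2 change -0.72, SE 0.16, adjusted p = 0.134). H2-Ob, a chain of the H2-O inhibitor of peptide loading, had 10.7, 12.1, 10.4 and 9.52 CPM with panobinostat, against 5.91, 6.96, 6.89 and 8.89 CPM with trastuzumab (log2 change 0.58, SE 0.16, adjusted p = 0.273). MHC class I genes had a median log2 change of 0.03 over 18 genes, of which 2 were higher and 0 lower at an unadjusted p under 0.05.

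Natural killer cell genes overlapped widely between the drugs, and single libraries stood high in each group. edgeR, DESeq2 and voom called 0 of 17 tested, with 0 higher and 1 lower at an unadjusted p under 0.05 and a median of -0.49. The list scored 1.62 to 2.30 with panobinostat and 0.98 to 3.03 with trastuzumab. Ncr1, an activating receptor of these cells, had 3.56, 4.22, 2.69 and 9.84 CPM with panobinostat, against 15.8, 8.70, 2.92 and 4.53 CPM with trastuzumab (log2 change -0.68, SE 0.48, adjusted p = 0.916). Gzmb, a granule protease, averaged 2.35 ± 0.92 CPM with panobinostat and 2.34 ± 1.50 CPM with trastuzumab. The chemokine Ccl5 had 16.6, 14.0, 12.2 and 32.0 CPM with panobinostat, against 59.5, 17.1, 12.7 and 13.8 CPM with trastuzumab, where mouse 12 lay far above the rest. Its log2 change of -0.48 (SE 0.53, adjusted p = 0.997) became 0.35 without that mouse. Tnf, a macrophage and lymphocyte cytokine, averaged 3.65 ± 1.20 CPM with panobinostat and 6.40 ± 1.24 CPM with trastuzumab (log2 change -0.82, SE 0.32, adjusted p = 0.548).

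Mouse genes of the luminal and HER2 type were checked because human tumour reads could reach them. edgeR, DESeq2 and voom called 0 of 19 tested, with 0 higher and 2 lower at an unadjusted p under 0.05. Most values were lower with panobinostat: 17 of the 19 log2 changes were negative and 2 positive. Their median was -0.37, against 0.005 for all genes. The list's summed level was 941 to 1268 CPM with panobinostat and 1148 to 1379 CPM with trastuzumab. Erbb2, the mouse HER2 gene, averaged 172 ± 25.2 CPM with panobinostat and 178 ± 20.2 CPM with trastuzumab (log2 change -0.05, SE 0.25, adjusted p = 0.999), and Krt8, a luminal keratin, 384 ± 44.0 CPM with panobinostat and 438 ± 35.6 CPM with trastuzumab (log2 change -0.19, SE 0.15, adjusted p = 0.955). With the luminal level added to the fit, 5 genes were called, 2 higher and 3 lower. Vgf, Cacng7, Lyz1 and Egr1 stayed among them, and Dner, Retnlg, Col10a1, F7, Smoc2 and Cxcr4 lost the call.

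Among 25 chemokines tested, 5 were higher and 5 lower at an unadjusted p under 0.05, with a median of 0.27. The shares of all genes at that p were 3.8% higher and 3.2% lower. Of the chemokines, edgeR on all 16 libraries and voom called 0 and DESeq2 called Cxcl2. In the fit of 8 libraries Ccl12 also had an adjusted p of 0.0477. Ccl12 and Ccl17, which attract monocytes and T cells, had log2 changes of 0.70 (SE 0.22, adjusted p = 0.340) and 1.27 (SE 0.41, adjusted p = 0.392), and Ccl24, an eosinophil attractant, one of -1.03 (SE 0.37, adjusted p = 0.478). Fc receptors and phagocyte oxidase genes had a median of -0.08 over 16 genes, with 1 higher and 3 lower at an unadjusted p under 0.05. Dendritic cell markers had a median of -0.01 over 15 genes, with 0 higher and 2 lower, of which DESeq2 called Cd83, a surface marker of mature dendritic cells (log2 change -0.57, adjusted p = 0.0733). T and B lymphocyte genes had a median of -0.43 over the 8 of 17 that could be tested, and mast cell and basophil genes one of -0.42 over 7, each with 0 higher and 1 lower. Adipocyte genes had a median of 0.47 over 20 genes, with 0 higher and 0 lower at an unadjusted p under 0.05. With their level added to the fit the calls were 57, of which 27 were higher and 30 lower.

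The lists of vessels, stroma and metabolism had medians between -0.17 and 0.05. These were 0.05 for hypoxia and glycolysis, 0.01 for complement, -0.02 for the unfolded protein and heat shock response and -0.05 for glucocorticoid and clock response. They were -0.07 for endothelial, -0.06 for pericyte and smooth muscle and -0.11 for fibroblast markers, -0.17 for collagens and matrix, -0.15 for cholesterol synthesis, -0.15 for myoepithelial and basal markers and -0.15 for skeletal muscle. Per1, a clock gene that glucocorticoids induce, averaged 31.9 ± 3.24 CPM with panobinostat and 26.3 ± 1.54 CPM with trastuzumab (log2 change 0.28, SE 0.10, adjusted p = 0.499). Among fibroblast genes Pdgfrl, a receptor-like gene related to those for platelet-derived growth factor, had a log2 change of -1.01 (adjusted p = 0.0731). DESeq2 called Pdgfrl and voom did not. The elastin gene Eln, in the matrix list with Smoc2, averaged 227 ± 64.7 CPM with panobinostat and 423 ± 198 CPM with trastuzumab (log2 change -0.90, SE 0.29, adjusted p = 0.389), and Smoc2 was the single called gene of 25 in that list.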

How the data were processed

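Whole xenograft tumours, 4 mice per group, were sequenced as RNA libraries made with a kit that does not mark strand, per the labels. The authors deposited unnormalised read counts for each mouse gene symbol. Base calls came from CASAVA 1.8.2, alignments from TopHat2 to mm10 and counts from HTSeq, per the submitters' processing notes. The sources used here give no settings, no annotation version and no step that removed human reads. The table listed 24681 symbols. A dot replaced the value of 1327 of them in all 8 libraries that received panobinostat, and dropping these left 23354. Total counts per library ran from 4848244 to 8140782.

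The counts were fitted with edgeR 4.0.16 in R 4.3.3 (TMM scaling, filterByExpr, quasi-likelihood F test), with all 16 libraries in 1 fit and 1 mean per group, leaving 15610 genes, 12 residual degrees of freedom and a common biological coefficient of variation of 0.183. Calls needed an adjusted p (Benjamini-Hochberg, over all genes tested) under 0.05. The standard error (SE) is the absolute log2 change over the square root of F. Levels are CPM after TMM scaling, as mean ± SD over 4 libraries. A list score is the mean log2 CPM of tested members, with a prior count of 2. The fit was checked on simulated counts.

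Named genes were the called genes whose groups did not overlap (up to 12 per direction, with at least 1 CPM in the higher group and no predicted loci), filled up to 8 per direction by smallest unadjusted p, up to 3 called members of each of 31 lists, and 24 genes named in every case. Vgf and Smoc2 were among those 24 and were also called. List members outside this rule were chosen after their values were seen. The comparison, the lists and the genes were chosen with earlier results of these data known. Promoters came from RefSeq on GRCm38.p6 and gene positions from GENCODE on mm10. Dner, Syp, Ptgs1, Cxcl10, Cxcl11, Cd274, Cdkn1a, H1f0, Erbb2 and Krt8, like Col10a1, share exon bases with an annotated gene on the opposite strand. The alternatives were other scalings and filters, a fit of 8 libraries only, DESeq2 1.42.0, limma 3.58.1 voom, 3 marker scores as covariates, and leaving out each library. The motif TTCAGCACC was added after the called genes were seen.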

Additional observations from a re-analysis of the deposited data

Results flagged for a closer look

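Over 140 groups of 4 libraries that were examined, 12 held a library far from the other 3, by a gap to its nearest neighbour that exceeds Dixon's critical value. Chance gives about 1 in 20 such groups. Trastuzumab mouse 12 accounts for 4 of them: Ccl5 was at 59.5 CPM there against 12.7 to 17.1 CPM in the other trastuzumab libraries, Cdkn1a at 53.4 CPM, H1f0 at 124 CPM and Syp at 3.71 CPM. Elsewhere in the trastuzumab group, Dner was at 3.14 CPM in mouse 24 against 0.82 to 0.95 CPM in the others, and Tesc at 0.950 CPM in mouse 15 against 1.74 to 1.88 CPM.

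Among panobinostat libraries, mouse 4 was far above the rest for Dner (8.73 CPM, others 5.90 to 5.91 CPM) and Iglon5 (17.6 CPM, others 12.9 to 13.5 CPM). Mouse 13 was far below the rest for Col10a1 (3.77 CPM, others 7.25 to 7.84 CPM) and far above them for the natural killer cell list (mean log2 CPM 2.30, others 1.62 to 1.63) and the T and B lymphocyte list (3.09, others 2.13 to 2.29). Mouse 7 was far above the rest for the luminal list (4.68, others 4.27 to 4.33).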

How the results depend on the processing

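The 10 calls (3 higher, 7 lower) became 15 (11 higher, 4 lower) in a fit of the 8 panobinostat and trastuzumab libraries only (6 of the 10 among them), 69 (30 higher, 39 lower) with DESeq2, 57 (27, 30) with the adipocyte level as a covariate, 56 (8, 48) with the erythroid level and 5 (2, 3) with the luminal level. The cause was not tested. The other scalings, filters and voom gave 8 to 11. Leaving out 1 library gave 2 to 16 calls, 1 to 5 of them higher and 1 to 12 lower, and a difference in mean total count of -611954 to 220372. Of the values of named genes between the drugs under the alternatives, 895 kept direction and side of the threshold, 82 lost the call, 34 gained it and 14 changed sign. For the 10 called genes against vehicle, 469 kept both, 37 lost the call, 10 gained it and 4, all of Vgf, changed sign. Gzmb (-0.05) became 0.28 with voom, 0.40 with the luminal level and 0.0228 with the erythroid level, and ranged from -0.389 to 0.25 over fits that left out 1 library, above 0 without panobinostat mouse 7 or 8 or trastuzumab mouse 12 or 15. Erbb2 became 0.0421 with the adipocyte level. With the erythroid level, Ccl5 became 0.78, Ncr1 0.18, Cdkn1a 0.29 and H1f0 0.0542. Leaving out 1 library gave -0.876 to 0.35 for Ccl5 and -0.0687 to 0.0087 for Cdkn1a, both above 0 without trastuzumab mouse 12. For Vgf with trastuzumab against vehicle, the value became 0.0541 with the luminal level and -0.2694 to 0.16 without 1 library, above 0 without trastuzumab mouse 15 or vehicle mouse 3 or 29. The 31 list medians kept their sign under RLE and total-count scaling, with shifts of at most 0.0131. Upper-quartile scaling was not run for them. No paired analysis was possible because each mouse number occurs once. Genes with few reads, Retnlg and F7 among them, are limited by depth: their differences rest on under 20 reads a library. With 4 mice a group, a gene that missed the threshold was not shown to be equal between the drugs.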
